A study of Homo sapiens with 14 samples.

Results

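The 38 genes described here belong to the programme that the transcription factor ATF4 switches on in the integrated stress response and under amino acid shortage. They were listed by name, with earlier results of these data known, and all 38 were found by Ensembl identifier among the 62757 genes counted in each library. By role they comprised 8 transcription factors, 4 feedback and mTORC1 regulators, 6 enzymes of amino acid and glutathione metabolism, 3 mitochondrial one-carbon enzymes, 8 amino acid transporters, 5 genes of tRNA charging and export, and 4 genes for secreted factors and a receptor. All 38 passed the low-count filter in the libraries without a hairpin. In the hairpin libraries 37 passed, and FGF21 did not.

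In the integrated stress response, kinases that sense amino acid shortage, unfolded protein, double-stranded RNA or haem shortage phosphorylate the initiation factor eIF2. General translation then falls, while the ATF4 messenger, which carries upstream reading frames, is translated more, so that the level of this messenger is only a partial measure of ATF4 protein. ATF4 binds with C/EBP partners at composite elements in its target genes, and those targets make, import and load amino acids onto tRNA, while DDIT3 (CHOP), TRIB3 and PPP1R15A (GADD34) shape how the response ends. The kinase PKR, encoded by EIF2AK2, responds to double-stranded RNA, and ADAR1, encoded by ADAR, edits adenosines in such RNA.

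RNA was sequenced from OVCAR3 and A2780, established ovarian cancer lines of human origin, with 14 libraries in 7 groups of 2. For each line there was a parental group, labelled WT, and a group labelled DDP, for a cisplatin-resistant derivative. Cisplatin is a platinum drug that crosslinks DNA. The other 3 groups carry the OVCAR3-DDP label together with a hairpin name: shNC was taken as the control hairpin, and sh1 and sh2 as the hairpins directed at ADAR1. All hairpin groups thus share the OVCAR3 line and, by label, cisplatin resistance. Neither the cisplatin dose, nor the hairpin sequences, nor whether a derivative was a clone or a pool was given in the sources used here. No label states that replicates came from separate cultures, and the p-values then reflect only how far these libraries spread, which may be technical.

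ATF4 with a C/EBP partner binds the element TGATGNAA, and the promoters of the members were searched for these letters on both strands. RefSeq promoters (GRCh38.p14, 250 bases before to 50 after each start) were found for 32 of the 38 members, with 52 promoters between them. A match stood in 12 promoters, of 12 members, against 4.46% of 27305 genes and 3.62% of 35116 promoters in all. The narrower form TGATGCAA, which is contained in the first, was found for 7 members and for 1.08% of all genes. The windows shown here, 30 bases each from 5′ to 3′ along the gene, are those of the 8 members that held a match and rose under both ADAR hairpins, and of FGF21, which had no count in the control hairpin. Capitals mark the match, and where the element lies on the opposite strand they show its reverse complement.
ASNS, chr7:97872458-97872487, minus strand: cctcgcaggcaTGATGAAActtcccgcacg
CHAC1, chr15:40953251-40953280, plus strand: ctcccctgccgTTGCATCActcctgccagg
AARS1, chr16:70289675-70289704, minus strand: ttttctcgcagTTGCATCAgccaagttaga
CEBPG, chr19:33374060-33374089, plus strand: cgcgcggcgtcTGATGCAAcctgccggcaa
GARS1, chr7:30594834-30594863, plus strand: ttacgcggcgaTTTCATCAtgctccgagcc
SLC1A4, chr2:64989381-64989410, plus strand: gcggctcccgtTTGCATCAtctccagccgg
SLC1A5, chr19:46784893-46784922, minus strand: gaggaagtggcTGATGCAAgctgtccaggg
ATF3, chr1:212565205-212565234, plus strand: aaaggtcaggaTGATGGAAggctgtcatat
FGF21, chr19:48755459-48755488, plus strand: aaacaccaggaTTGCATCAgggaggaggag
Counted from the transcript start of the RefSeq promoter that holds it, the match began at −68 in ASNS, −209 in CHAC1, −187 in AARS1, −42 in CEBPG, −33 in GARS1, −7 in SLC1A4, −97 in SLC1A5, −191 in ATF3 and −54 in FGF21. That start is not always the outermost start of the gene in GENCODE 29: it lay inside the gene by 3780 bases in SLC1A5, 922 in SLC1A4, 783 in CEBPG and 509 in CHAC1, and lay 35 to 197 bases from the outermost start in the others shown. A match is a description of the letters, and binding was not measured.

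Each library held between 20428538 and 49115255 counts on genes. Several epithelial and ovarian markers of the other OVCAR3 groups were near 0 in the OVCAR3 libraries labelled DDP. The keratin KRT7 stood at 1083 CPM (counts on the gene scaled by the library's total on all genes) in parental OVCAR3, 0.246 CPM in the OVCAR3 libraries labelled DDP and 1006 CPM in shNC, and the matching values of CD44 were 564, 0 and 888 CPM. Over 11 epithelial and ovarian carcinoma markers, summed levels were 4595 CPM in parental OVCAR3, 557 in the OVCAR3 libraries labelled DDP and 5670 in shNC. Most of the 557 CPM came from the keratins KRT8, at 403 CPM against 1423 in parental OVCAR3, and KRT18, at 131 against 821 CPM. WT1 went the other way, with 19.0 CPM in the OVCAR3 libraries labelled DDP and 0 counts in parental OVCAR3 and in shNC. In parental A2780, where KRT7, WT1 and MUC16 had 0 counts, the sum was 202 CPM. The 11 stromal, endothelial and leukocyte markers summed to between 28.1 and 141 CPM per library, with CD3E at 0 counts in every group. Every direction drawn here from the OVCAR3 libraries labelled DDP rests on that label. Hairpin libraries also stood apart in mitochondrial messenger RNA, with 7256 to 9474 CPM summed over 13 genes against 23067 to 35086 CPM without a hairpin, and in 15 immediate early genes, with 3340 to 3634 CPM against 809 to 1999 CPM. ADAR, the targeted gene, had 447 and 399 CPM in shNC, 289 and 254 CPM with sh1, and 116 and 114 CPM with sh2. It was lower by log2 −0.71 (SE 0.11) with sh1 and −1.99 (SE 0.11) with sh2, at adjusted p values of 0.00123 and 2.07e-09 in edgeR's quasi-likelihood test.

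Levels differed widely between members. Per kilobase of exon, ATF4 itself was the highest member in the OVCAR3 libraries labelled DDP, at 303 CPM per kb, and stood second in parental A2780 at 282 CPM per kb. DDIT4 (REDD1), which restrains the growth kinase mTORC1, led in parental OVCAR3 at 371 CPM per kb and in parental A2780 at 349 CPM per kb. It also led in shNC at 1018 CPM per kb, where ATF4 ranked 5 at 112 CPM per kb. At the low end were NUPR1, a small chromatin-associated stress protein, with 0.0210 to 0.876 CPM per kb over the groups, and FGF21, a secreted metabolic hormone, with 0 to 15.5 CPM per kb. Parental A2780 held the highest group mean for 19 of the 38 members and parental OVCAR3 for 9. The lowest group mean lay in shNC for 18 members, among them ATF4, ASNS, CTH, CHAC1, PSAT1 and SESN2. These counts are on CPM without TMM scaling, and the matching shares of all genes were not computed. TMM factors were 0.894 and 0.880 in shNC and 1.09 and 1.08 in the OVCAR3 libraries labelled DDP. Members whose group means lie close, such as XPOT at 176.5 and 214.5 CPM in these groups, can change place under that scaling. The same holds for JDP2, SLC7A11 and SLC7A1, each lowest in shNC on unscaled CPM. Over all 38 members the median level was 71.0 CPM in shNC, 117 in sh1 and 102 in sh2, against 142 in parental OVCAR3, 99.8 in the OVCAR3 libraries labelled DDP, 199 in parental A2780 and 133 in A2780-DDP.

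**Figure D1:**
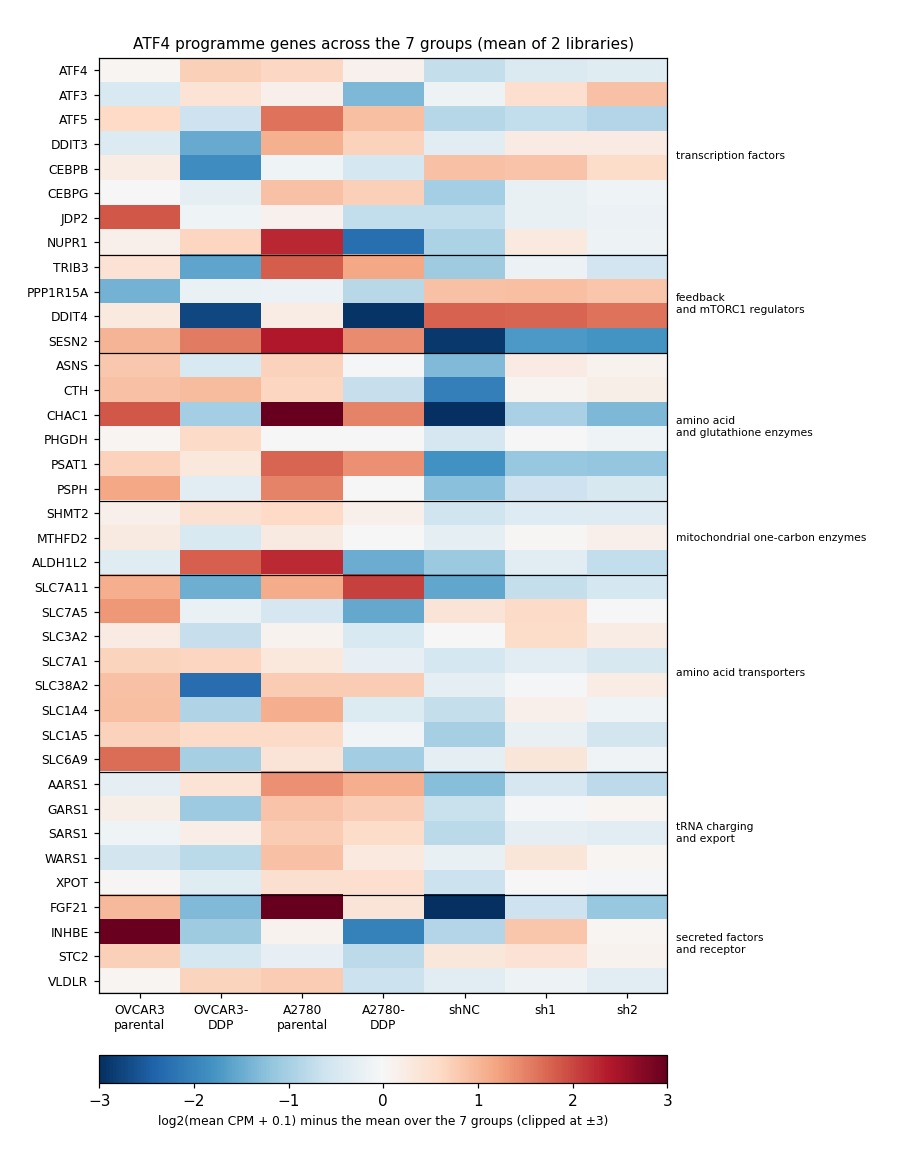
Level of each of the 38 genes (vertical, grouped by role) in the 7 groups (horizontal), as log2 of mean CPM plus 0.1 minus the gene's mean over the groups, with colours held at 3 either way; each cell is the mean of 2 libraries. On this scale, without TMM scaling, the shNC column is the lowest for 18 genes and the parental A2780 column the highest for 19. The matching shares of all genes were not computed.

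Whether the programme differed between resistant and parental cells was asked first in OVCAR3. Between the OVCAR3 libraries labelled DDP and the parental ones, 8 members were higher and 25 lower of 38 tested, where 33.4% of all genes were called higher and 35.2% lower (68.5% in all). At least 2-fold were 21 members and 43.7% of all genes. The members' median log2 change was −1.01, and that of all 23031 genes tested −0.03. In A2780 1 member was higher and 31 lower in the DDP cells, where 18.0% of all genes were called higher and 17.3% lower (35.3% in all). At least 2-fold were 13 members and 15.2% of all genes, and the medians were −0.64 for the members and 0.00 for all genes. Lower in both lines were 20 members, each against its own parental cells, where 7.48% of all genes were called lower in both. Calls are edgeR's quasi-likelihood test with an adjusted p under 0.05 over all genes. In bulk RNA, fewer cells with a transcript and less transcript per cell cannot be told apart.

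Among the transcription factors, ATF4 and ATF3 moved in opposite directions in the 2 lines. ATF4 went from 508 and 451 CPM in parental OVCAR3 to 764 and 757.5 CPM in the OVCAR3 libraries labelled DDP. It had 705 and 711 CPM in parental A2780 and 534 and 465 CPM in A2780-DDP. The groups did not overlap in either line, and ATF4 was higher by log2 0.49 (SE 0.10) in the first and lower by log2 −0.49 (SE 0.10) in the second, at edgeR adjusted p values of 0.00063 and 0.00159. ATF3, a stress-induced factor of the same bZIP family, went from 61.1 and 76.1 CPM to 122 and 126.5 CPM in OVCAR3, and from 99.2 and 108 CPM to 36.7 and 37.5 CPM in A2780. Its log2 changes were 0.68 (SE 0.11) and −1.47 (SE 0.11). The other bZIP factors fell or did not pass. CEBPB, an activator and ATF4 partner, fell from 389.7 and 306 CPM to 80.7 and 83.0 CPM in OVCAR3 and by a log2 change of −0.39 (SE 0.13) in A2780. JDP2, a repressor of the AP-1 group, fell in both lines with log2 changes of −2.17 and −0.87, as did ATF5 with −1.40 and −0.72 and DDIT3 with −1.28 and −0.36. CEBPG, the widely expressed C/EBP partner of ATF4, fell in OVCAR3 (log2 −0.46, SE 0.09) and did not pass in A2780 (log2 −0.16, SE 0.09). NUPR1 fell in A2780, from 5.29 and 4.65 CPM to 0.116 and 0.122 CPM, and in OVCAR3 it had 0.753 and 1.41 CPM in parental libraries and 1.505 and 1.57 CPM in those labelled DDP (log2 0.31, SE 0.34; edgeR adjusted p = 0.43).

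The feedback and mTORC1 genes split in the same way. TRIB3, a pseudokinase that dampens ATF4 and AKT signalling, fell from 171 and 152 CPM to 37.3 and 42.2 CPM in OVCAR3 and from 416 and 422 CPM to 276 and 262.5 CPM in A2780. DDIT4 fell by nearly the same amount in both, from 770.1 and 755 CPM to 94.2 and 92.7 CPM in OVCAR3 and from 712 and 723 CPM to 87.35 and 74.2 CPM in A2780. Its log2 changes were −3.21 (SE 0.10) and −3.14 (SE 0.10), and the difference between lines was −0.07 (SE 0.13; edgeR adjusted p = 0.734). Parental and DDP libraries were far apart in both lines. PPP1R15A, the subunit that brings a phosphatase to eIF2, went from 83.45 and 80.1 CPM to 190.2 and 194 CPM in OVCAR3 and from 189 and 200.1 CPM to 129 and 119.6 CPM in A2780. SESN2, a leucine sensor and antioxidant regulator, rose in OVCAR3 with log2 0.36 (SE 0.11) and fell in A2780 with −0.98 (SE 0.11). The SESN2 call in OVCAR3 was lost without replicate 2 of the OVCAR3 libraries labelled DDP (adjusted p = 0.0708 in the same test). Exons of DDIT4 share 41.2% of their bases with DDIT4-AS1 on the other strand, and the strand setting of the counting is not given in the sources used here.

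Of the 6 enzymes of amino acid and glutathione metabolism, 4 fell in OVCAR3 and 5 in A2780, where 35.2% and 17.3% of all genes were called lower. CHAC1, which breaks down glutathione, fell most in both: it had 71.4 and 65.4 CPM in parental OVCAR3 against 8.63 and 9.78 CPM in the libraries labelled DDP, and 172.5 and 181 CPM in parental A2780 against 54.3 and 51.5 CPM. The log2 changes were −3.07 (SE 0.11) and −1.73 (SE 0.10). ASNS, asparagine synthetase, fell from 17.3 and 26.3 CPM to 9.70 and 8.39 CPM in OVCAR3 and from 21.7 and 18.4 CPM to 11.1 and 12.6 CPM in A2780. In GENCODE 29, 44.6% of the exon bases of ASNS are shared with a transcript on the same strand, AC079781.5. Whether the annotation used for counting held it as a separate gene is not known. If so, the ASNS counts may be low throughout. PSPH, which completes serine synthesis, fell with log2 changes of −1.66 and −1.48, and PSAT1, which acts before it, with −0.55 and −0.37. PHGDH, the entry enzyme of that pathway, rose in OVCAR3 (log2 0.32, SE 0.09) and did not pass in A2780 (log2 −0.02, SE 0.09). CTH, which makes cysteine from cystathionine, had overlapping ranges in OVCAR3, with 33.9 and 35.8 CPM in parental cells against 38.1 and 35.3 CPM under the DDP label. In A2780 it fell from a mean of 29.25 CPM (SD 1.07, n = 2) to 11.6 CPM (SD 1.20, n = 2) (log2 −1.32, SE 0.11). The PHGDH call was lost without replicate 2 of the OVCAR3 libraries labelled DDP, and the ASNS call in A2780 when single libraries were left out, with edgeR adjusted p values up to 0.0693 and 0.0688.

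Mitochondrial one-carbon enzymes, which pass carbon from serine to folate, held one of the widest contrasts between lines. ALDH1L2, which oxidises formyl-folate in mitochondria, rose from 9.31 and 16.7 CPM to 59.9 and 56.8 CPM in OVCAR3 and fell from 84.6 and 75.1 CPM to 4.93 and 6.95 CPM in A2780. The log2 changes were 1.98 (SE 0.20) and −3.74 (SE 0.22). MTHFD2 fell in both lines, by log2 −0.90 and −0.25. In the annotation MTHFD2 shares 27.2% of its exon bases with SLC4A5 on the other strand. SHMT2, which starts the pathway, fell in A2780 (log2 −0.43, SE 0.09) and was at log2 0.13 (SE 0.08) without passing in OVCAR3.

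Of the 8 amino acid transporters, 7 were called lower in OVCAR3 and none higher, where 35.2% of all genes were called lower. SLC38A2, a sodium-coupled importer of small neutral amino acids, went from 1067 and 1206 CPM to 131.5 and 119.6 CPM there, and in A2780 it had 1074 and 1024 CPM in parental and 1026 and 1063 CPM in DDP cells. Its log2 changes were −3.36 (SE 0.10) and 0.00 (SE 0.09). SLC7A11, the cystine-glutamate exchanger that feeds glutathione synthesis, moved in opposite directions: it fell from 118 and 151 CPM to 20.9 and 24.6 CPM in OVCAR3 and rose from 142 and 131 CPM to 249.7 and 267 CPM in A2780. With log2 0.93 (SE 0.12; edgeR adjusted p = 4.06e-05), it was the 1 member called higher in A2780-DDP. SLC7A5 (LAT1), which imports leucine and other large neutral amino acids, fell from 1331 and 1509 CPM to 487.5 and 515 CPM in OVCAR3 and from 403 and 409 CPM to 183 and 219 CPM in A2780. SLC3A2, its heavy chain and that of SLC7A11, fell with log2 changes of −1.12 and −0.57. The glycine importer SLC6A9 (−2.87 and −1.42) and the neutral amino acid exchanger SLC1A4 (−1.99 and −1.50) fell in both lines. SLC1A5, the glutamine exchanger, fell by log2 −0.28 and −0.66, and its OVCAR3 call was lost in 5 alternatives, among them upper-quartile scaling and leaving out replicate 1 of the OVCAR3 libraries labelled DDP (edgeR adjusted p up to 0.134). SLC7A1, the cationic amino acid importer, passed in A2780 alone (log2 −0.55, SE 0.14), and its difference between lines did not pass (log2 0.36, SE 0.20; edgeR adjusted p = 0.153).

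Genes of tRNA charging and export went in different directions. AARS1, alanyl-tRNA synthetase, went from 308 and 330.0 CPM to 519 and 516 CPM in OVCAR3 and from 1018 and 1001 CPM to 804 and 854 CPM in A2780 (log2 0.52 and −0.27). GARS1, for glycine, fell in OVCAR3 from 472 and 458 CPM to 198 and 192 CPM (log2 −1.43, SE 0.08), and had 753 and 739.8 CPM against 709 and 666 CPM in A2780, where it did not pass (log2 −0.11, SE 0.08). WARS1, for tryptophan, fell in both (log2 −0.43 and −0.59), while SARS1, for serine, passed in neither (log2 0.15 and −0.20). XPOT, which exports tRNA from the nucleus, fell in OVCAR3 (log2 −0.57, SE 0.08) and was at log2 0.02 in A2780. Of the other 16 tRNA synthetases listed, 3 were higher and 9 lower in OVCAR3, and 3 higher and 3 lower in A2780, where 33.4% and 35.2% of all genes were called in those directions in OVCAR3 and 18.0% and 17.3% in A2780.

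The secreted factors fell in both lines, where 7.48% of all genes were called lower in both. INHBE, an activin subunit, went from 68.4 and 76.1 CPM to 4.43 and 4.15 CPM in OVCAR3 and from 10.1 and 9.63 CPM to 2.26 and 2.04 CPM in A2780, with log2 changes of −4.25 (SE 0.13) and −2.18 (SE 0.14). FGF21 fell from 1.48 and 1.47 CPM to 0.2895 and 0.145 CPM in OVCAR3 and from 20.4 CPM in both libraries to 0.811 and 1.07 CPM in A2780. STC2, a stanniocalcin, fell with log2 changes of −1.42 and −0.54. VLDLR, a lipoprotein receptor, rose in OVCAR3 from 19.0 and 21.7 CPM to 33.2 and 29.3 CPM and fell in A2780 from 35.9 and 31.1 CPM to 12.1 and 12.9 CPM. The VLDLR call in OVCAR3 was lost without replicate 1 of the OVCAR3 libraries labelled DDP (edgeR adjusted p = 0.0635).

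**Figure D2:**
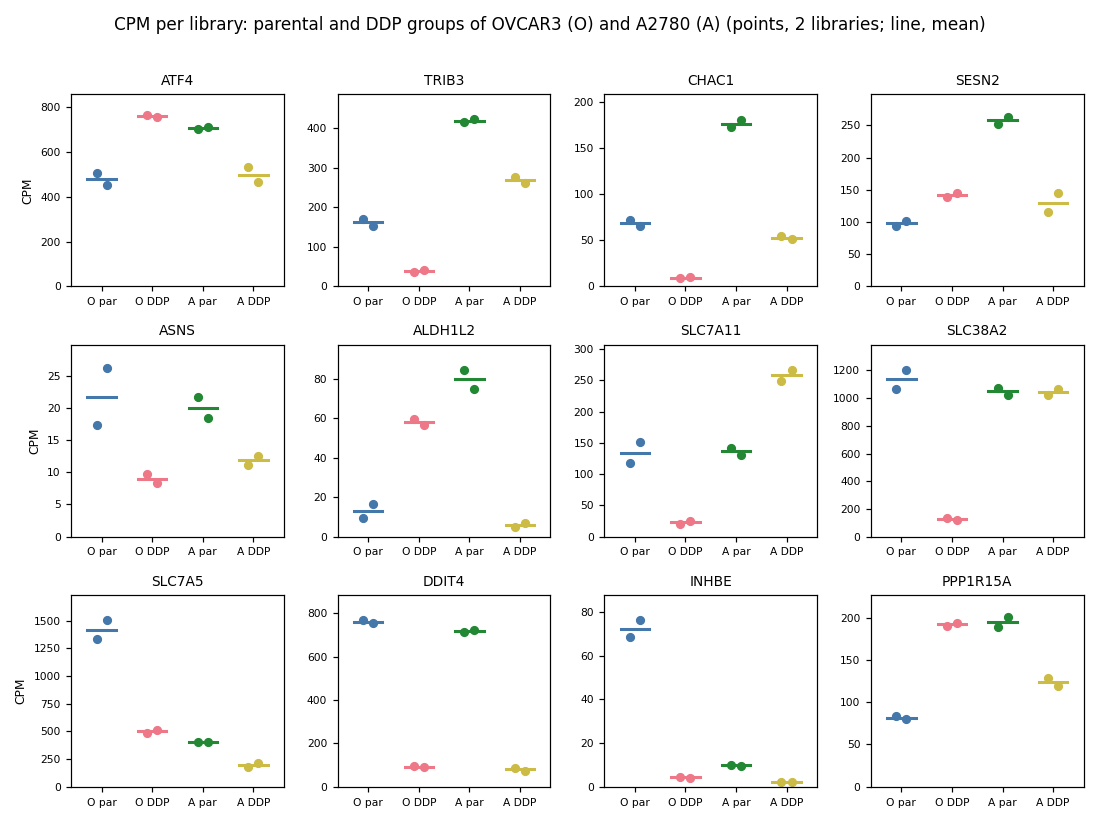
CPM per library for 12 of the genes in parental (par) and DDP libraries of OVCAR3 (O) and A2780 (A); points are the 2 libraries of a group and lines their means, on axes that start at 0. ATF4, SESN2, ALDH1L2 and PPP1R15A rise in the first line and fall in the second, SLC7A11 does the reverse, and DDIT4 falls to under 100 CPM in both.

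The difference between lines was tested directly as the change in OVCAR3 minus that in A2780. It passed for 32 members, 14 with a higher and 18 with a lower value in OVCAR3, where 26.9% of all genes were called in each direction (53.8% in all). At least 2-fold were 17 members and 36.7% of all genes. Higher in the OVCAR3 libraries labelled DDP and lower in A2780-DDP were 7 members: ATF4, ATF3, PPP1R15A, SESN2, ALDH1L2, AARS1 and VLDLR. The opposite pattern was called for 1 member, SLC7A11. Over all genes these patterns were called for 5.33% and 6.07%. The differences for the 7 ran from log2 0.79 (SE 0.12) in AARS1 to 5.72 (SE 0.30) in ALDH1L2, and that of SLC7A11 was −3.67 (SE 0.17; edgeR adjusted p = 1.43e-09). At the same threshold of adjusted p, calls held in every other scaling, filter, tool and set of libraries, with a replicate block and with every library left out in turn, for 29 of the 33 members called in OVCAR3, 24 of the 32 in A2780 and 26 of the 32 differences. Those lost at least once in A2780 were DDIT3, CEBPB, ASNS, PSAT1, SHMT2, MTHFD2, SLC7A1 and AARS1.

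The parental lines differed from each other. Against parental OVCAR3, parental A2780 had 21 members higher and 8 lower of 38, where 33.7% and 32.3% of all genes were called in those directions (66.0% in all). At least 2-fold were 15 members and 41.1% of all genes, and the median log2 difference was 0.40 for the members and 0.01 for all genes. All 5 genes of tRNA charging and export were higher in A2780, from log2 0.40 in XPOT to 1.61 in AARS1. TRIB3 (log2 1.33), CHAC1 (1.32), SESN2 (1.35) and DDIT3 (1.42) were higher by similar amounts, and FGF21 by log2 3.74 (SE 0.22). Higher in parental OVCAR3 were SLC7A5 (log2 −1.86), JDP2 (−1.79), SLC6A9 (−1.36) and INHBE (−2.92). No transporter among the members was called higher in A2780, although SLC1A4 had 139 and 135 CPM there against 111 and 126 CPM in parental OVCAR3 (log2 0.15, SE 0.09; edgeR adjusted p = 0.165).

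Whether ADAR1 knockdown touched the programme was asked in the hairpin libraries. Against shNC, the mean of the ADAR hairpins left 22 members higher and none lower of 37 tested, where 5.94% of all genes were called higher and 5.98% lower (11.9% in all). The median log2 change was 0.49 for the members and 0.00 for all 19044 genes. For sh1 alone 23 members were higher and none lower, against 1.96% and 1.85% of all genes (3.81% in all). For sh2 alone 19 were higher and 3 lower, against 7.23% and 7.04% (14.3% in all). Members changed at least 2-fold numbered 5 for the mean, 5 for sh1 and 4 for sh2, against 0.788%, 0.436% and 1.40% of all genes. The hairpins share the shNC libraries, so the last 2 counts are not independent of each other. Other lists moved in the same libraries. Of 13 mitochondrial messengers 6 were lower with the mean of the hairpins and none higher (median log2 −0.28), and their summed level was 9474 and 9250 CPM in shNC, 8564 and 8674 CPM with sh1 and 7767 and 7256 CPM with sh2. Of 9 epithelial and ovarian markers tested 6 were lower and none higher (median log2 −0.30), with sums over all 11 of 5507 and 5833 CPM in shNC, 4772 and 4554 CPM with sh1 and 4828 and 4814 CPM with sh2. Of 14 immediate early genes tested 1 was higher and 1 lower, and of 6 stromal, endothelial and leukocyte markers tested none was called. The part of these lists in the members' changes was not tested.

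These counts moved with single libraries. Without shNC replicate 1 the mean of the hairpins gave 10 calls, and without shNC replicate 2 also 10, whereas without sh1 replicate 1 it gave 31. For sh1 the counts were 10 without shNC replicate 1 and 8 without shNC replicate 2. For sh2 they were 9 when either shNC library was left out, 6 without sh2 replicate 1 and 13 without sh2 replicate 2. At the same threshold of adjusted p, calls for the mean of the hairpins that held with every library left out and in every other scaling, filter, tool and set of libraries numbered 9: ATF3, CEBPG, SESN2, ASNS, CTH, CHAC1, SLC7A11, GARS1 and INHBE. Of these, SESN2, ASNS, CTH, CHAC1 and INHBE changed at least 2-fold, and the other 4 did not. Counts over all genes moved likewise, from 2270 called to 340 and 327 without each shNC library. No member changed direction while called.

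All 6 enzymes of amino acid and glutathione metabolism rose with the mean of the hairpins, where 5.94% of all genes were called higher. CTH had 4.77 and 4.13 CPM in shNC, 16.8 and 23.3 CPM with sh1, and 25.0 and 17.8 CPM with sh2. CHAC1 had 1.52 and 2.35 CPM in shNC, 10.7 and 8.57 CPM with sh1, and 8.86 and 5.925 CPM with sh2. ASNS had 4.98 and 4.83 CPM in shNC, 16.1 and 13.6 CPM with sh1, and 13.1 and 13.6 CPM with sh2. Every knockdown library lay above both shNC libraries for these 3 genes, which changed by log2 2.12 (SE 0.19), 2.03 (SE 0.24) and 1.43 (SE 0.16), at edgeR adjusted p values of 2e-06, 5.86e-05 and 4.48e-05. CHAC1 is thus a change at low level, from a mean of 1.93 CPM. The serine enzymes rose less, with log2 0.35 (SE 0.10) for PHGDH, 0.58 (SE 0.12) for PSAT1 and 0.62 (SE 0.14) for PSPH, and each of these 3 calls was lost when single libraries were left out (edgeR adjusted p up to 0.254). Reads on PSPHP1, a copy of PSPH, came to 10.9% of the PSPH total.

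ATF4 messenger did not pass under the hairpins. It had 275 and 286.5 CPM in shNC, 345 and 335 CPM with sh1, and 354 and 357 CPM with sh2, a log2 change of 0.22 (SE 0.09; edgeR adjusted p = 0.124). All 4 knockdown libraries lay above both shNC libraries. ATF3 rose from 85.2 and 84.5 CPM to 136 and 132 CPM with sh1 and 183 and 163 CPM with sh2 (log2 0.75, SE 0.10). CEBPG rose from 43.9 and 46.1 CPM to 66.4 and 90.7 CPM with sh1 and 90.6 and 77.4 CPM with sh2 (log2 0.76, SE 0.13). DDIT3 rose from 44.5 and 45.5 CPM to 65.95 and 69.05 CPM and to 70.8 and 64.5 CPM, a log2 change of 0.49 (SE 0.11) whose edgeR adjusted p of 0.00745 reached 0.174 over the alternatives. DDIT3 shares 27.2% of its exon bases with the methionyl-tRNA synthetase gene MARS1 on the other strand, which rose too, by log2 0.79 (SE 0.11), and reads of the 2 genes cannot be told apart without the strand setting. JDP2 was called with the mean (log2 0.46, SE 0.13; edgeR adjusted p up to 0.443 over the alternatives). ATF5 (log2 −0.05, SE 0.14), NUPR1 (1.06, SE 0.48) and CEBPB (−0.26, SE 0.09) did not pass. CEBPB was called lower with sh2 alone, by log2 −0.42 (SE 0.10), and that call did not hold with every library left out in turn.

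Of the feedback and mTORC1 genes, SESN2 and TRIB3 rose. SESN2 had 6.54 and 6.35 CPM in shNC, 16.3 and 13.1 CPM with sh1, and 15.0 and 12.9 CPM with sh2 (log2 1.06, SE 0.16; edgeR adjusted p = 0.000603). TRIB3 had 57.5 and 56.9 CPM in shNC, 122 and 90.8 CPM with sh1, and 80.8 and 80.03 CPM with sh2. It passed with sh1 (log2 0.82, SE 0.14) and not with sh2 (log2 0.39, SE 0.14; edgeR adjusted p = 0.061), and the test of sh2 against sh1 did not pass (log2 −0.43, SE 0.13; edgeR adjusted p = 0.101). PPP1R15A and DDIT4, both highly expressed in these libraries, stayed within log2 −0.10 (SE 0.09) and −0.16 (SE 0.08) of shNC.

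Every gene of tRNA charging and export rose with the mean of the hairpins. GARS1 had 262 and 259 CPM in shNC, 374 and 417 CPM with sh1, and 457.5 and 400.5 CPM with sh2 (log2 0.57, SE 0.10; edgeR adjusted p = 0.00122). AARS1 had 163 and 162 CPM in shNC, 295 and 253 CPM with sh1, and 236 and 219 CPM with sh2 (log2 0.53, SE 0.10). XPOT changed by log2 0.53 (SE 0.10), SARS1 by 0.40 (SE 0.10) and WARS1 by 0.34 (SE 0.10). Of these calls only that of GARS1 held in every alternative, and those of AARS1, XPOT, SARS1 and WARS1 were each lost at least once. WARS1 was called with sh1 and not with sh2. Among the other 16 synthetases listed, 5 rose and 1 fell, where 5.94% of all genes were called higher and 5.98% lower. Those that rose were led by MARS1 and by CARS1, for cysteine (log2 0.70, SE 0.10), while QARS1, for glutamine, fell by log2 −0.43 (SE 0.10).

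Transporters divided. SLC7A11 rose from 22.9 and 19.7 CPM in shNC to 30.3 and 46.4 CPM with sh1 and 44.4 and 42.0 CPM with sh2 (log2 0.84, SE 0.15; edgeR adjusted p = 0.00165). SLC1A4 rose from 40.2 and 37.1 CPM to 69.4 and 71.4 CPM with sh1 and 62.0 and 55.4 CPM with sh2 (log2 0.64, SE 0.11), and SLC1A5 from 165 and 156.5 CPM to 283 and 264 CPM and to 219.9 and 218 CPM (log2 0.52, SE 0.09). SLC3A2 passed narrowly with the mean (log2 0.27, SE 0.09; edgeR adjusted p = 0.0499, up to 0.41 over the alternatives). SLC7A5, which pairs with it, had 779 and 729 CPM in shNC, 999 and 720.5 CPM with sh1, and 575 and 579 CPM with sh2. It lay lower in both sh2 libraries than in any other hairpin library, with log2 −0.49 (SE 0.12, edgeR adjusted p = 0.0121) against shNC. That call did not hold with every library left out in turn. SLC7A1 was at log2 0.04 (SE 0.11), SLC38A2 at 0.25 (SE 0.11) and SLC6A9 at 0.30 (SE 0.12) with the mean, and none of these passed. SLC6A9 was called higher with sh1 alone (log2 0.55, SE 0.14), and that call was lost when either shNC library was left out (edgeR adjusted p of 0.238 and 0.247). SLC38A2 was called higher with sh2 alone (log2 0.39, SE 0.13), and that call was lost with DESeq2 size factors (edgeR adjusted p = 0.051), with upper-quartile scaling (0.058) and when any single library of the groups compared was left out (up to 0.392). SLC1A5 shares 23.4% of its exon bases with the antisense gene AC008622.2.

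Of the secreted factors, INHBE rose, from 5.19 and 4.57 CPM in shNC to 16.5 and 16.1 CPM with sh1 and 11.4 and 7.62 CPM with sh2 (log2 1.26, SE 0.18; edgeR adjusted p = 0.000404). FGF21 had 0 counts in both shNC libraries, 18 counts in all with sh1 (2 and 16) and 12 with sh2 (3 and 9). Against a floor of 3 counts over the shNC group, its pooled level was 6.23-fold higher with sh1 and 4.24-fold higher with sh2. It was not tested. The pooled levels were taken as observed, and most of the sh1 counts came from 1 library. Floors cover counting error only, on the shNC side. STC2 (log2 −0.16, SE 0.09) and VLDLR (0.01, SE 0.14) did not pass with the mean, as did none of the 3 one-carbon enzymes, of which ALDH1L2 had the largest value at log2 0.49 (SE 0.17; edgeR adjusted p = 0.059). ALDH1L2 was called higher with sh1 alone (log2 0.72, SE 0.19), and the call was lost with all 14 libraries in the fit (edgeR adjusted p = 0.0737) and without shNC replicate 1, shNC replicate 2 or sh1 replicate 2 (0.0564, 0.472 and 0.0714). STC2 was called lower with sh2 (log2 −0.33, SE 0.11), and the call was lost with a replicate block (edgeR adjusted p = 0.0744) and when any single library of the groups compared was left out (up to 0.425).

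**Figure D3:**
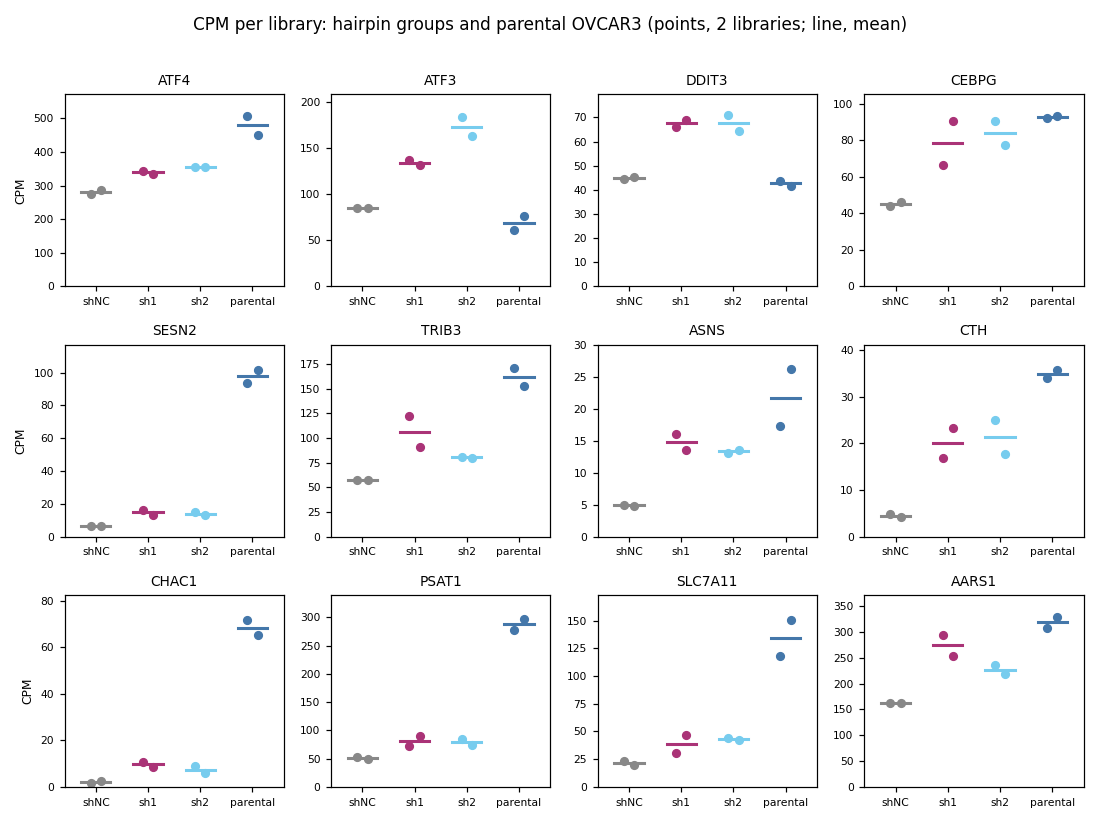
CPM per library for 12 of the genes in shNC, sh1 and sh2 and, for scale, in parental OVCAR3; points are the 2 libraries of a group and lines their means, on axes that start at 0. For all 12 the sh1 and sh2 points lie above shNC. For 10 of them, all but ATF3 and DDIT3, the sh1 and sh2 means stay below parental OVCAR3. The 12 were picked for display. On CPM without TMM scaling, every knockdown library lay above both shNC libraries for 29 of all 38 genes. The matching share of all genes was not computed. By edgeR with TMM scaling, 22 of 37 were called higher with the mean of the hairpins, where 5.94% of all genes were.

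The hairpins reached different depths of knockdown. ADAR was lower with sh2 than with sh1 by log2 −1.27 (SE 0.11; edgeR adjusted p = 5.86e-06). Of 37 members none was higher and 2 were lower with sh2 than with sh1, where 0.667% of all genes were called higher and 1.25% lower (1.92% in all); no member was called at least 2-fold, against 0.289% of all genes. These were SLC7A5 (log2 −0.61, SE 0.12; edgeR adjusted p = 0.0135) and INHBE (log2 −0.81, SE 0.19; edgeR adjusted p = 0.0306). Each call was lost when some single libraries were left out, and the count ran from 0 without sh2 replicate 2 and 1 without sh2 replicate 1 to 7 without sh1 replicate 1 (1 higher and 6 lower with sh2) and 18 without sh1 replicate 2 (5 higher and 13 lower). ATF3 was called higher with sh2 when either sh1 library was left out (log2 0.38 and 0.31; edgeR adjusted p of 0.0122 and 0.0147), and CEBPG, MTHFD2, SLC7A11 and SLC38A2 without sh1 replicate 2. In sign, 27 members were lower with sh2 and 10 higher, with a median log2 difference of −0.15 against 0.00 for all genes. A difference that did not pass does not show that the hairpins acted alike.

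**Figure D4:**
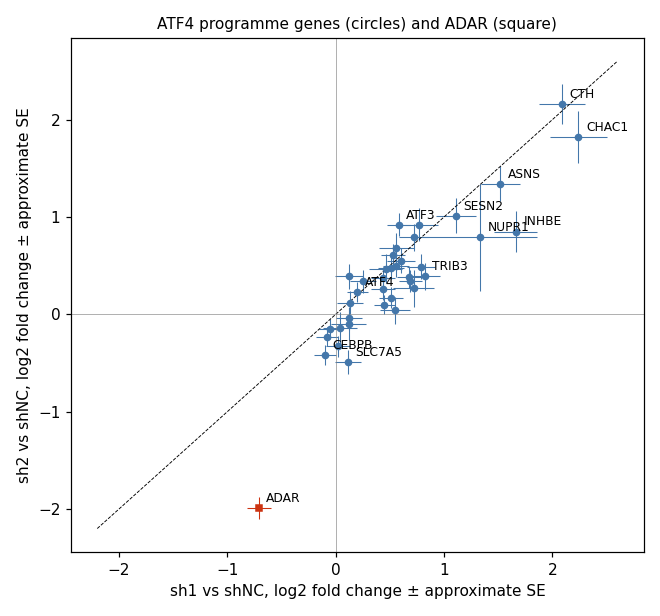
Log2 change with sh1 (horizontal) and with sh2 (vertical), each against the same shNC libraries, for 37 genes of the programme (circles) and ADAR (square); bars are approximate standard errors and the dashed line marks equal change. ADAR lies far below the line at −0.71 and −1.99, while CTH and CHAC1 lie highest on both axes. The axes share their control libraries.

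**Figure D5:**
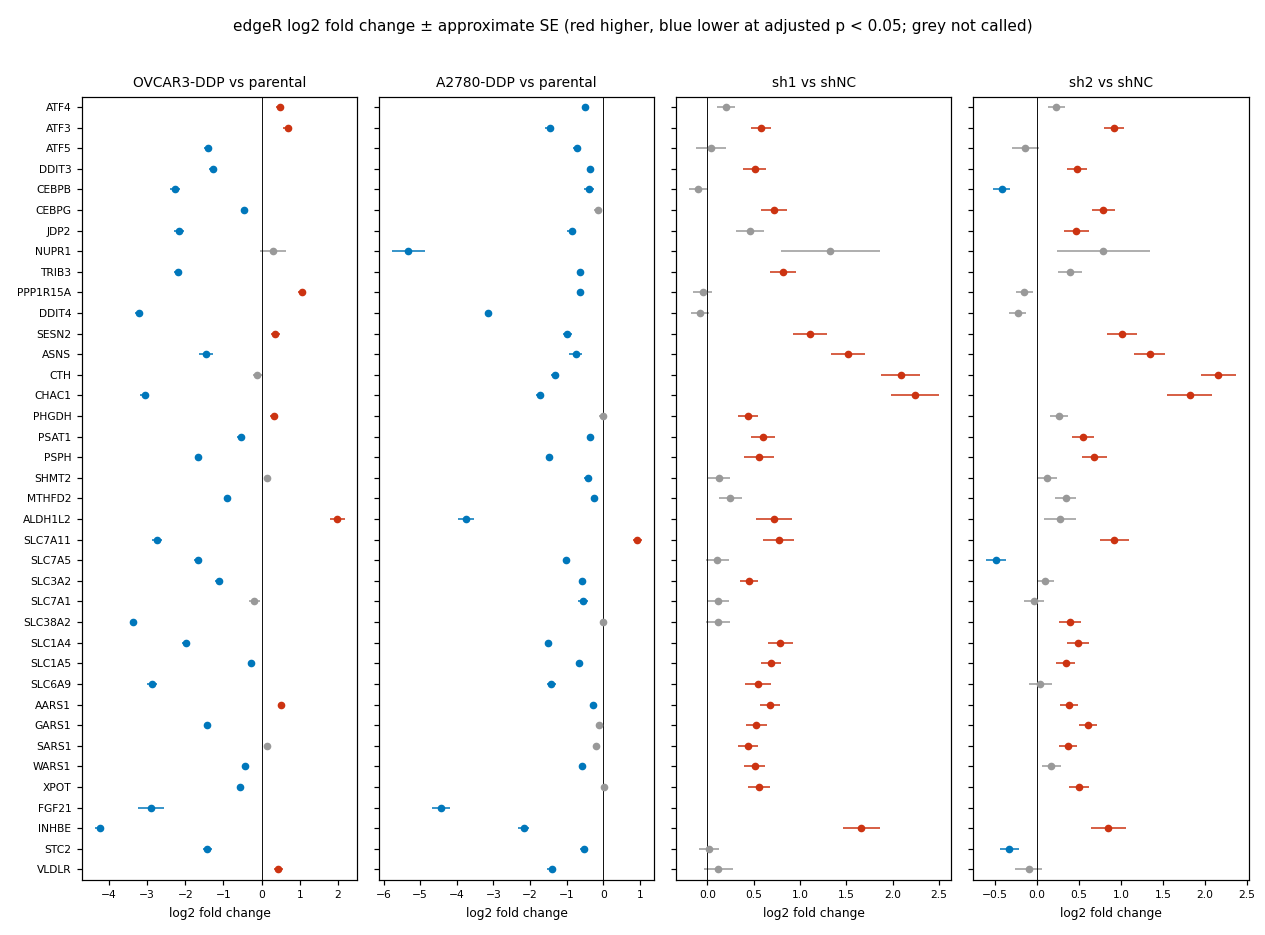
Log2 change with approximate standard error (horizontal, a separate scale per panel) for the 38 genes (vertical) in the OVCAR3 libraries labelled DDP and in A2780-DDP against parental cells, and with sh1 and sh2 against shNC; red and blue mark edgeR calls higher and lower, and FGF21 has no point in the hairpin panels. Of 38 genes 25 are called lower in the first panel and 31 in the second, and 23 and 19 of 37 higher in the others.

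The control hairpin group was compared with both OVCAR3 groups without a hairpin. Against parental OVCAR3, shNC had 5 members higher and 29 lower of 38, where 25.1% of all genes were called higher and 26.5% lower (51.5% in all). At least 2-fold were 19 members and 27.6% of all genes, and the median log2 difference was −0.81 for the members and 0.00 for all genes. CHAC1 was lower by log2 −4.96 (SE 0.20), SESN2 by −3.73 (SE 0.15), CTH by −2.78 (SE 0.18) and PSAT1 by −2.32 (SE 0.11). FGF21 was 22.9-fold lower by the floor of 3 counts over the shNC group, with the parental level taken as observed. Higher in shNC were PPP1R15A (log2 2.49, SE 0.11), DDIT4 (1.65, SE 0.10), CEBPB (0.84, SE 0.12), WARS1 (0.51, SE 0.10) and ATF3 (0.50, SE 0.11). The shNC libraries also serve as the control of the ADAR hairpins, so members low in shNC enter both comparisons. SESN2, for example, reached a mean of 14.7 CPM with sh1 against 97.8 CPM in parental cells.

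Against the OVCAR3 libraries labelled DDP, from which the label derives it, shNC had 15 members higher and 20 lower, where 32.9% and 36.8% of all genes were called in those directions (69.7% in all). At least 2-fold were 18 members and 48.8% of all genes. At the same threshold of adjusted p, calls held in all other settings and with every library left out for 31 of the 34 members against parental OVCAR3 and 30 of the 35 here. SESN2 was lower in shNC by log2 −4.17 (SE 0.15) and CTH by −2.75 (SE 0.18), while DDIT4 was higher by 4.78 (SE 0.12), CEBPB by 3.03 (SE 0.13) and SLC38A2 by 2.32 (SE 0.12). DDIT4 had 94.2 and 92.7 CPM in the OVCAR3 libraries labelled DDP and 2036 and 2156 CPM in shNC, and SESN2 went from 139 and 146 CPM to 6.54 and 6.35 CPM. Against parental OVCAR3, cisplatin resistance by label, the hairpin vector and the set of libraries cannot be told apart. Against the OVCAR3 libraries labelled DDP, the vector, the set of libraries and the marker differences cannot be told apart. KRT7, for example, stood at 1006 CPM in shNC against 0.246 CPM there. Both comparisons share libraries with the comparisons described before. Lower mitochondrial messenger and higher immediate early levels came with the hairpin libraries, and their part in these differences was not tested.

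Genes of eIF2 kinases and initiation control, other ATF4 targets and the separate chaperone arm of the stress response were read beside the members. Of 20 genes listed for eIF2 kinases and initiation control, 4 rose and 1 fell with the mean of the hairpins. Those that rose were led by EIF2S2, the beta subunit of eIF2 (log2 0.58, SE 0.11), and PPP1R15B, the constitutive phosphatase partner (0.50, SE 0.11). EIF2AK2, which encodes PKR, had 97.5 and 94.2 CPM in shNC, 108 and 149 CPM with sh1, and 153.5 and 135 CPM with sh2 (log2 0.41, SE 0.12; edgeR adjusted p = 0.0295, up to 0.245 over the alternatives). Among 18 genes of the ATF6 and XBP1 arm, which supplies chaperones to the endoplasmic reticulum, 1 rose (XBP1, log2 0.51, SE 0.10) and 4 fell. Of 20 other reported ATF4 targets, 4 rose and 2 fell, and of 18 other amino acid and one-carbon enzymes tested 1 rose and 2 fell. In this comparison 5.94% of all genes were called higher and 5.98% lower. Against parental OVCAR3, 16 of the 20 other ATF4 targets were higher in shNC and 3 lower (median log2 0.70). There 25.1% of all genes were called higher and 26.5% lower. The members went mostly the other way, with 5 higher and 29 lower of 38. Of the 18 chaperone arm genes 8 were higher in shNC and none lower (median log2 0.25). Between shNC and parental OVCAR3, the chaperone HSPA5 stood at 6389 and 1662 CPM (log2 2.13, SE 0.10). NDRG1, among the other targets, stood at 7079 and 136 CPM (log2 5.89, SE 0.12).

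In A2780-DDP, 7 of the 18 chaperone arm genes fell and 1 rose, and XBP1 was among those that fell (log2 −1.12, SE 0.11). Of the 20 other ATF4 targets 7 fell and 3 rose, and the receptor ligand gene ADM2 was at log2 −3.13 (SE 0.15) and the autophagy adaptor SQSTM1 at 1.09 (SE 0.10). Of 15 immediate early genes 12 rose and 2 fell there, and of 13 mitochondrial messengers 1 rose and 11 fell. Over all genes 18.0% were called higher and 17.3% lower. The part of these lists in the changes of the members was not tested. In the OVCAR3 libraries labelled DDP, 8 of 10 other brakes on mTORC1 rose and none fell, SESN3 by log2 2.52 (SE 0.14) and CASTOR2, an arginine sensor relative, by 2.35 (SE 0.21), while DDIT4 fell. In the same libraries 8 of the 20 other ATF4 targets rose and 8 fell (median log2 −0.05). Among 16 other amino acid transporters 5 rose and 8 fell, and of all genes 33.4% were called higher and 35.2% lower. SLC6A15, an importer of branched-chain amino acids, had 79.7 CPM there and 0 counts in parental OVCAR3.

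Members with the element and members without it were set side by side. Of the 11 tested members with a match, 10 rose with the mean of the hairpins, with a median log2 change of 0.57, and SLC7A1 did not. Of 20 members with a promoter entry and no match, 9 rose, with a median of 0.29. Of the 6 members without a promoter entry 3 rose, with a median of 0.73, and over all genes 5.94% were called higher. In A2780-DDP 10 of 12 with a match fell, 16 of 20 without and 5 of 6 with no promoter entry, where 17.3% of all genes were called lower. In the OVCAR3 libraries labelled DDP these counts were 9 of 12, 13 of 20 and 3 of 6, against 35.2% of all genes. CTH and SESN2, among those that rose most under the hairpins, held no match in these windows, which says only that the letters are not there.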

How the data were processed

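The authors deposited 1 file of raw read counts per gene for each of 14 libraries, made with STAR 2.7.8a, GRCh38.p13 and HTSeq 2.0.3 per the submitters' processing notes. Total RNA came from a Trizol extraction, per the labels' protocols. Neither the annotation release nor the strand setting was given in the sources used here. From the deposited counts, CPM were computed on assigned counts, of which each library had 20428538 to 49115255. Reads on no gene were 48.7% to 50.0% of reads and stayed out. Symbols, coordinates, exon lengths and exon overlaps came from GENCODE 29 and gene tables. That release may differ from the one used for counting.

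Genes were tested with edgeR 4.0.16 (R 4.3.3; quasi-likelihood F-test, TMM, filterByExpr at a minimum count of 10, Benjamini-Hochberg over all genes, threshold 0.05), with 1 mean per group. The 8 libraries without a hairpin formed one fit (23031 genes, 4 residual degrees of freedom), the 6 hairpin libraries another (19044 and 3), and all 14 a further one (24193 and 7) for shNC against groups without a hairpin. The scripts were checked on simulated counts. Alternatives were DESeq2 1.42.0 (size factors, Wald test), limma 3.58.1 (voom), upper-quartile scaling, other filters, other sets of libraries, blocking on the replicate number, and omission of single libraries. All members are named, and from each further list up to 2 genes each way with the largest called change at 10 CPM or more. The members and all gene lists were chosen with earlier results of these data known. Standard errors are approximate.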

Additional observations from a re-analysis of the deposited data

Results flagged for a closer look

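For 32 of the 38 genes the change in OVCAR3 differed from that in A2780 by edgeR's quasi-likelihood test of the difference, and each is given here as the log2 change in the OVCAR3 libraries labelled DDP minus that in A2780-DDP, each against its parental cells. Among the transcription factors the differences were 0.98 for ATF4, 2.15 for ATF3, −0.68 for ATF5, −0.92 for DDIT3, −1.88 for CEBPB, −1.30 for JDP2 and 5.64 for NUPR1, the last at under 6 CPM in every library. Of the feedback and mTORC1 genes, TRIB3 differed by −1.57, PPP1R15A by 1.69 and SESN2 by 1.35. Enzymes of amino acid and glutathione metabolism differed by −0.70 (ASNS), 1.22 (CTH), −1.34 (CHAC1) and 0.34 (PHGDH). Mitochondrial one-carbon enzymes differed by 0.56 (SHMT2), −0.65 (MTHFD2) and 5.72 (ALDH1L2).

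Transporters differed by −3.67 (SLC7A11), −0.67 (SLC7A5), −0.55 (SLC3A2), −3.36 (SLC38A2), −0.49 (SLC1A4), 0.38 (SLC1A5) and −1.45 (SLC6A9). Genes of tRNA charging and export differed by 0.79 (AARS1), −1.32 (GARS1), 0.35 (SARS1) and −0.59 (XPOT). Secreted factors and the receptor differed by 1.52 (FGF21), −2.07 (INHBE), −0.88 (STC2) and 1.85 (VLDLR). The calls of ASNS, PHGDH, SLC1A4, SLC1A5, SARS1 and FGF21 were lost in at least 1 alternative. All of these differences rest on the OVCAR3 libraries labelled DDP, in which KRT7 was at 0.246 CPM and CD44 at 0 counts.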

How the results depend on the processing

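Over 4721 recomputed values of single genes, 4379 kept their side of the threshold, 250 lost and 92 gained a call, and none reversed while called. Among the 4379 were 71 in which the sign differed with no call on either side.

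Requiring a fold change of at least 2 left 21 members for OVCAR3, 13 for A2780, 17 for their difference, 15 for parental A2780 against parental OVCAR3, 5 for the mean of the hairpins, 5 for sh1, 4 for sh2, 0 for sh2 against sh1, 19 for shNC against parental OVCAR3 and 18 for shNC against the OVCAR3 libraries labelled DDP. Leaving out each library in turn gave, in that order, 31 to 34, 25 to 28, 27 to 32, 25 to 30, 10 to 31, 8 to 27, 6 to 13, 0 to 18, 32 to 35 and 30 to 32 members. DESeq2's Wald test gave 8 members for sh2 against sh1. With TMM library sizes the median level was 91.9 CPM in the OVCAR3 libraries labelled DDP, 186 in parental A2780, 80.1 in shNC and 105 in sh2. The element TGATGCAA alone was matched for 7 members.

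Over all genes, counts moved by over 1.5 times at a mean of at least 5 CPM (10267 for OVCAR3, 9989 between parental lines and 10343 for shNC against the OVCAR3 libraries labelled DDP, of which the main counts were 15784, 15203 and 16860). For sh2 against sh1, 365 genes became 690 with no low-count filter and 646 with DESeq2. Leaving out libraries gave 327 to 6318 genes for the mean of the hairpins, 89 to 4512 for sh1, 303 to 1386 for sh2 and 58 to 4286 for sh2 against sh1.

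Replicate numbers were not taken as pairs. Deviations of replicate 1 from its group's mean log CPM correlated between groups at −0.0755 to 0.141. The top value, between parental OVCAR3 and A2780-DDP, lay above the threshold of 0.1 set for pairing. With a replicate block the members called were 33, 32, 32, 29, 21, 23, 20, 2, 33 and 34 in the order above. With 2 libraries a group, small changes and genes at few counts, such as NUPR1 and FGF21, are the least certain.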
